A study of Mus musculus with 2 samples.

Results

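The mitochondrial ribosomal protein genes were followed in epithelial cells of embryonic mouse skin with and without *Mettl3*. The members are all genes of the deposited gene list whose symbol is Mrpl or Mrps followed by a digit. Of 77 such symbols, 76 had at least 20 unique molecular identifiers (UMIs, 1 for each captured transcript) over both libraries, out of 13184 genes measured in this way and 27998 listed. The remaining symbol was *Mrpl53*, with 4 control and 5 cKO UMIs. By their known place in the particle, 49 members belong to the large subunit and 26 to the small subunit. *Mrps18a* and *Mrps30* are counted with the large subunit, where their proteins sit despite the names. *Mrps36* is in neither list, since its protein is now known as a part of the oxoglutarate dehydrogenase complex.

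The series holds 1 single-cell RNA-seq library for each condition, both from back skin of C57BL/6 embryos at embryonic day 17. The control (Ctrl) carried *Mettl3* fl/+ and the conditional knockout (cKO) *Mettl3* fl/fl, and both carried Rosa16-YFP fl/+ and K14Cre, so the control had also met the recombinase and could lose 1 *Mettl3* allele. K14Cre is driven by the promoter of keratin 14 and acts in skin epithelium, and live YFP+ cells were sorted on integrins α6 and β1. Neither the labels nor the methods say how many embryos went into a library. With 1 library a condition there is no test between conditions, and all intervals below are 95% intervals that cover counting error only.

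METTL3 is the catalytic subunit of the complex that writes N6-methyladenosine (m6A) on messenger RNA. Mitochondrial ribosomes translate the few mRNAs of the mitochondrial genome, all of which encode subunits of the respiratory chain and of ATP synthase. Their ribosomal RNAs come from mitochondrial DNA, but every protein of the particle is encoded in the nucleus, made in the cytosol and imported. Some of these proteins descend from those of bacterial ribosomes, and others have no bacterial counterpart and surround the older core. Keratinocytes, like other tissues, express the whole set, and loss of single members impairs respiration in human patients.

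Barcodes with at least 1800 detected genes were kept, which left 4447 cells and 43874554 UMIs in Ctrl, and 3577 cells and 34116275 UMIs in cKO. Median depth was 8941 and 8581 UMIs a cell, and 16 kept barcodes occurred in both libraries. *Mettl3* itself measured 12.7 CPM (UMIs of a gene per 1000000 UMIs) in Ctrl and 6.18 CPM in cKO, a ratio of 0.487 (0.414 to 0.572), but 3′ tags do not read the deleted exon. *Xist* had 89523 UMIs in Ctrl and 1 in cKO, so sex and genotype cannot be told apart in any comparison of the libraries. None of the members, 0 of 76, lies on a sex chromosome. Cells were gated by marker genes into basal (2113 Ctrl and 1244 cKO cells), suprabasal (469 and 362), hair follicle (HF) WNThi (296 and 325) and HF WNTlo cells (789 and 774). In Ctrl, some genes outside the gates parted the cell types well. *Sbsn* was at 558 CPM in suprabasal and 46.4 CPM in basal cells, and *Col17a1* at 49.9 and 209 CPM. *Edar* was at 85.7 CPM in HF WNThi and 13.3 CPM in basal cells, and *Tgfb2* at 214 CPM in HF WNTlo and 1.73 CPM in basal cells. Other genes parted them less. *Krt15* was at 6096 CPM in basal and 4873 CPM in suprabasal cells, and *Lef1* at 223 CPM in HF WNThi and 155 CPM in basal cells. *Lhx2*, chosen to check HF WNTlo cells, was at 158 CPM there and 174 CPM in HF WNThi cells. Of genes that mark other cells, *Atoh1* (Merkel), *Dct* (melanocyte), *Col1a1* (mesenchyme) and *Pecam1* (endothelium) reached at most 5.07 CPM in these gates. These genes also served to gate other cells out, so their low levels follow from the gating and are no check of it.

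Together the members made up 0.801% of all UMIs in Ctrl and 0.972% in cKO. These are 351492 UMIs or 8011 CPM in Ctrl and 331519 UMIs or 9717 CPM in cKO, a summed ratio of 1.21 (1.21 to 1.22). The higher share in cKO was seen in each of the 4 gates. In basal cells the median cell gave 0.791% of its UMIs to the members in Ctrl (quartiles 0.712% and 0.874%) and 0.973% in cKO (0.865% and 1.08%). Suprabasal cells had the highest medians of both libraries, 0.839% in Ctrl and 1.06% in cKO. The medians were 0.765% and 0.924% in HF WNThi cells, and 0.768% and 0.905% in HF WNTlo cells. The quartiles show how cells of 1 library spread and are no error of the difference, since cells are not replicates. Barcodes with 10 to 100 UMIs, which hold free RNA, gave 0.921% of their UMIs to the members in Ctrl and 1.13% in cKO, a ratio of 1.23 (1.214 to 1.246). With 5% of free RNA subtracted from each library, the summed ratio was 1.21. Free RNA had a similar ratio to the cells, so this subtraction could move the summed ratio only little.

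**Figure D1:**
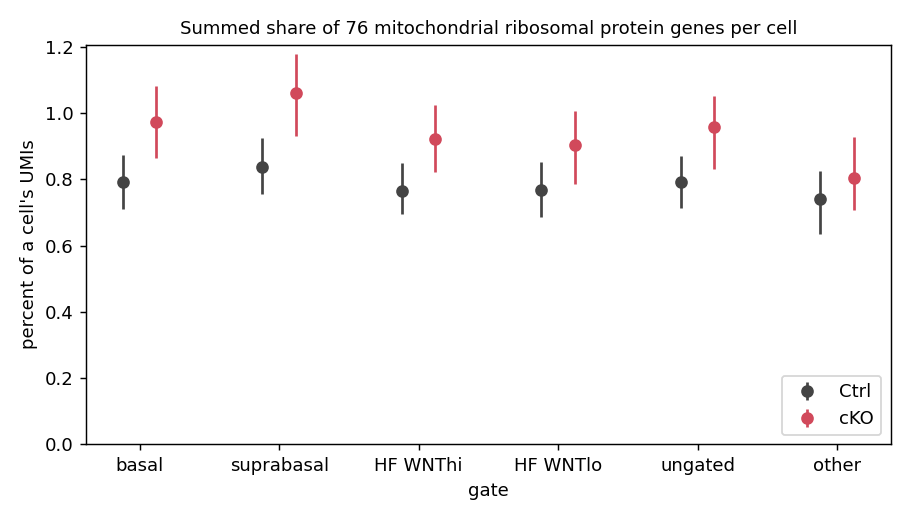
Share of each cell's UMIs that came from the 76 members, in percent on the vertical axis, by gate and library. Points are medians over cells and bars run from the lower to the upper quartile; the cKO median exceeds the Ctrl median in each gate, from 0.791% to 0.973% in basal cells.

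Not all members took part equally. Over all kept cells, 53 members had a higher and 23 a lower level in cKO, with a median log2 ratio of 0.19 (quartiles -0.03 and 0.45) beside 0.03 for all genes measured. At least 1.5-fold higher levels in cKO were found for 9 members, 11.8% of them, where 7.68% of all genes measured passed that mark. At least 1.5-fold lower levels were found for 0 members, where 4.51% of all genes did. By a smaller mark, 28 members were at least 25% higher (19.6% of all genes) and 0 were at least 20% lower (11.6% of all genes). Counting intervals lay wholly above 1 for 48 members, against 26.7% of all genes, and wholly below 1 for 16 members, against 21.1%. Counting intervals narrow with depth and the members are well detected, with 1651 to 23907 UMIs each, so these last counts are read with care. The fold shares of all genes include genes with as few as 20 UMIs, so they are not matched for depth either. Nor are they matched for exon count, with a median of 5 in the members and 9 in all genes. With 1 to 3 exons, 31.58% of members and 19.65% of all genes passed 1.5-fold, and with 4 or 5 exons 10.71% of each. The shares were 0% and 5.74% with 6 to 8 exons, and 0% and 3.58% with 9 or more.

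**Figure D2:**
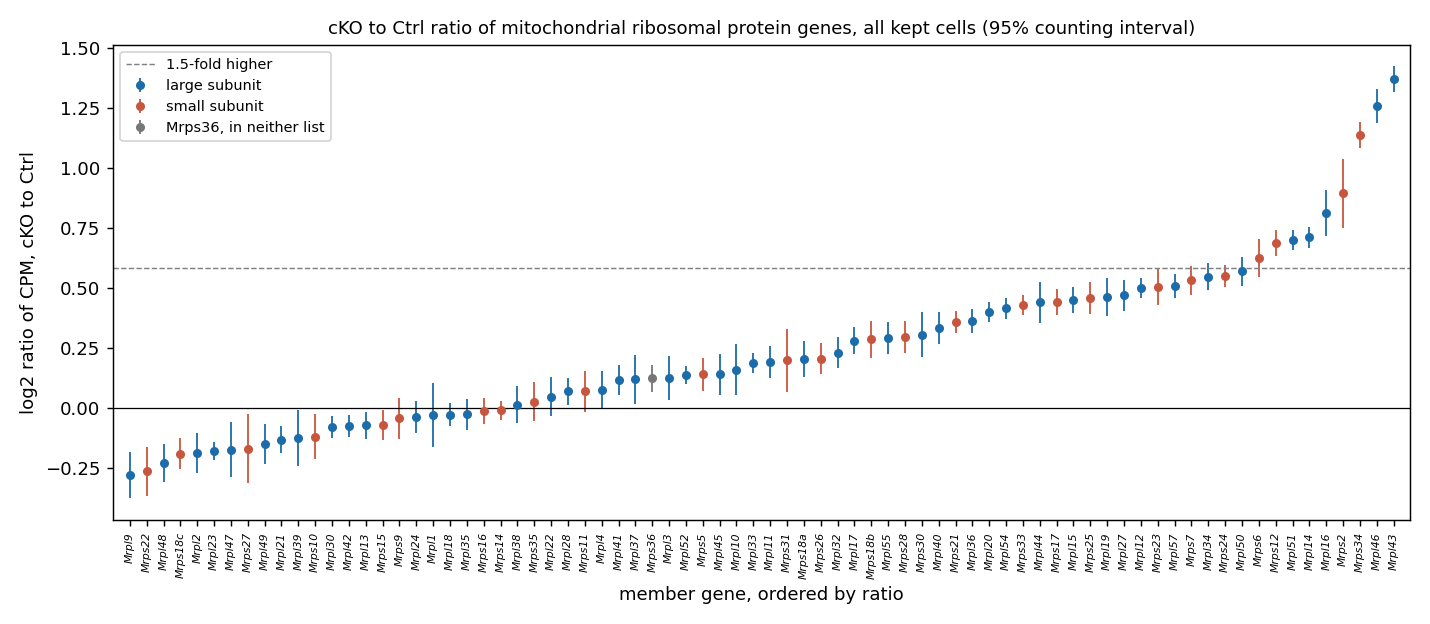
Log2 ratio of CPM, cKO to Ctrl, in all kept cells for each of the 76 members in rising order, coloured by subunit, with 95% counting intervals. The 9 genes from *Mrps6* to *Mrpl43* lie above the dashed line of 1.5-fold, and the lowest, *Mrpl9*, is at -0.28.

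The 3 members with the largest ratios all lack a bacterial counterpart. *Mrpl43*, a large subunit protein (ENSMUSG00000025208, minus strand of chromosome 19), measured 97.2 CPM in Ctrl and 252 CPM in cKO, a ratio of 2.59 (2.50 to 2.69). Its last bases resemble part of *Fgd4*, so reads from that stretch may be shared. *Mrpl46* (ENSMUSG00000030612, chromosome 7), also of the large subunit, measured 53.8 CPM in Ctrl and 129 CPM in cKO, a ratio of 2.40 (2.28 to 2.52). *Mrps34* (ENSMUSG00000038880, chromosome 17) encodes a small subunit protein whose loss causes Leigh syndrome in humans. Its level was 97.6 CPM in Ctrl and 215 CPM in cKO, a ratio of 2.20 (2.12 to 2.28).

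The other 6 members past 1.5-fold include proteins of the conserved core. *Mrps2* had the lowest Ctrl level of all members, 15.4 CPM, and 28.7 CPM in cKO, a ratio of 1.86 (1.68 to 2.05). *Mrpl16*, of the large subunit core, measured 34.7 CPM and 61.1 CPM, a ratio of 1.76 (1.65 to 1.88). *Mrpl14*, which faces the small subunit in the joined ribosome, measured 173 CPM and 284 CPM, a ratio of 1.64 (1.59 to 1.69). These 3 conserved genes thus spanned low to high levels, and their intervals stayed above 1.5. *Mrpl51* measured 197 CPM in Ctrl and 321 CPM in cKO, a ratio of 1.63 (1.58 to 1.67), and its 3′ end overlaps *Mir3098* on the same strand. *Mrps12*, whose protein lines the decoding centre, measured 107 CPM and 172 CPM, a ratio of 1.61 (1.55 to 1.68). *Mrps6* measured 53.1 CPM and 82.1 CPM, and its interval of 1.46 to 1.63 crossed the mark. Just below it lay *Mrpl50* with a ratio of 1.49 (1.42 to 1.55), *Mrps24* with 1.46 and *Mrpl34* with 1.46.

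The lowest ratios were small in size. *Mrpl9*, homolog of a bacterial large subunit protein, measured 50.4 CPM in Ctrl and 41.6 CPM in cKO, a ratio of 0.825 (0.771 to 0.882). *Mrps22*, a small subunit protein without a bacterial counterpart, measured 45.1 CPM and 37.6 CPM, a ratio of 0.834 (0.776 to 0.895). *Mrpl48*, *Mrps18c* and *Mrpl2*, the last a neighbour of the peptidyl transferase centre, followed with ratios of 0.854, 0.877 and 0.878. *Mrpl23*, at the exit of the peptide tunnel, was the most abundant member in Ctrl, with 321 CPM, and had 284 CPM in cKO, a ratio of 0.884 (0.861 to 0.907). *Mrpl23* and *Mrps18c* each have a near copy elsewhere in the genome (*Mrpl23-ps1* and Gm15946), which makes their counts uncertain. The same limit holds for *Mrpl33*, *Mrpl36*, *Mrpl41* and *Mrps18b*, named below, whose last bases resemble part of Gm43809, *Hsd17b2*, Gm6434 and Gm13552. *Mrpl47* and the pentatricopeptide repeat protein gene *Mrps27* had ratios of 0.887 and 0.889.

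Among the other abundant members the ratios were mixed. *Mrpl52* measured 294 CPM in Ctrl and 323 CPM in cKO, the highest cKO level of all. *Mrps14* measured 277 and 275 CPM, with a ratio of 0.993 (0.967 to 1.02) that counting error does not part from 1. *Mrps33* measured 206 and 278 CPM, and *Mrpl33* 223 and 255 CPM. *Mrpl12*, whose protein forms the ribosomal stalk and also binds the mitochondrial RNA polymerase, measured 198 CPM in Ctrl and 280 CPM in cKO, a ratio of 1.42 (1.37 to 1.46). *Mrpl44*, which carries a ribonuclease III fold, had a ratio of 1.36 (1.28 to 1.44), *Mrpl41* one of 1.09 and *Mrps36* one of 1.09. A 3′ tag counts each transcript once, so CPM levels were not divided by transcript length.

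Both subunits had medians above 0. The 49 large subunit members had a median log2 ratio of 0.16, 5 of them past 1.5-fold, and a summed ratio of 1.20 (1.20 to 1.21). The 26 small subunit members had a median of 0.25, 4 past 1.5-fold, and a summed ratio of 1.24 (1.228 to 1.249). By descent, the summed ratio was 1.15 for 30 large subunit genes with a bacterial homolog and 1.30 for 19 without. In the small subunit it was 1.19 for 16 genes with and 1.35 for 10 without. The medians of the same 4 groups were closer together, at 0.14, 0.21, 0.22 and 0.25. The grouping placed *Mrps18a* and *Mrps18b* with the genes without a bacterial homolog, but *Mrps18c* with those that have one.

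In the 4 gates, 46 members were higher in cKO in every gate, 12 were lower in every gate and 18 were mixed. These are 60.5% and 15.8% of the members, where 24.4% of the 9215 genes measured in all 4 gates were higher and 22.4% lower in every gate. Among the 4843 of these genes with at least 1651 UMIs, as the members have, the shares were 27.2% and 30.1%, a comparison added after the values were seen. The counting interval lay above 1 in all 4 gates for 31 members, 40.8%, and below 1 in all 4 for 2 members, 2.63%. The shares were 6.21% and 4.13% of all genes, and 10.2% and 7.74% of the 4843 genes with at least 1651 UMIs. Intervals on opposite sides in different gates were found for 0 members. Over all genes, intervals lay above 1 in 20.7% of basal, 16.8% of suprabasal, 10.9% of HF WNThi and 12.8% of HF WNTlo measurements, and below 1 in 16.7%, 11.8%, 10.1% and 15.2%. In basal cells 12 members were at least 1.5-fold higher in cKO, where 7.82% of all genes were, with a median log2 ratio of 0.23 and a summed ratio of 1.23 (1.22 to 1.24). In suprabasal cells the count was 15, against 11.9% of all genes, with a median of 0.23 and a summed ratio of 1.26 (1.24 to 1.28). In HF WNThi cells it was 13, against 9.12%, with a median of 0.19 and a summed ratio of 1.20 (1.18 to 1.22). In HF WNTlo cells it was 8, against 5.92%, with a median of 0.17 and a summed ratio of 1.18 (1.17 to 1.19). At least 1.5-fold lower levels were found for 0 members in each gate, where 4.94%, 5.26%, 6.36% and 5.10% of all genes were that much lower.

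The same 8 members passed 1.5-fold in all 4 gates, namely *Mrpl14*, *Mrpl16*, *Mrpl43*, *Mrpl46*, *Mrpl51*, *Mrps12*, *Mrps2* and *Mrps34*. They are 10.5% of the members, where 1.56% of all genes passed this mark in all 4 gates. *Mrpl43* measured 95.1 CPM in Ctrl and 250 CPM in cKO basal cells, 104 and 255 CPM in suprabasal, 98.4 and 246 CPM in HF WNThi, and 99.3 and 254 CPM in HF WNTlo cells. Its level was thus nearly flat over cell types within each library. *Mrpl46* had ratios of 2.26, 2.75, 2.53 and 2.44 in the same order, and *Mrps34* 2.22, 2.41, 1.98 and 2.25. *Mrpl9* was lower in cKO in every gate, with 47.8 and 40.6 CPM in basal, 50.1 and 38.7 CPM in suprabasal, 60.6 and 42.4 CPM in HF WNThi, and 54.3 and 46.9 CPM in HF WNTlo cells. *Mrps22* went the same way in basal, suprabasal and HF WNTlo cells, but measured 45.3 and 45.5 CPM in HF WNThi cells. The keratins of the basal gate were themselves lower in cKO basal cells, with *Krt14* at 10665 CPM in Ctrl and 8423 CPM in cKO, and 157 Ctrl and 276 cKO cells lay within 20% of that gate's limit. For the HF gates, 499 Ctrl and 403 cKO cells had 1 or 2 UMIs of the WNThi genes, and 595 and 602 of the WNTlo genes. With the minimum of each gate doubled, the summed ratios were 1.24 in basal, 1.26 in suprabasal, 1.19 in HF WNThi and 1.17 in HF WNTlo cells.

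**Figure D3:**
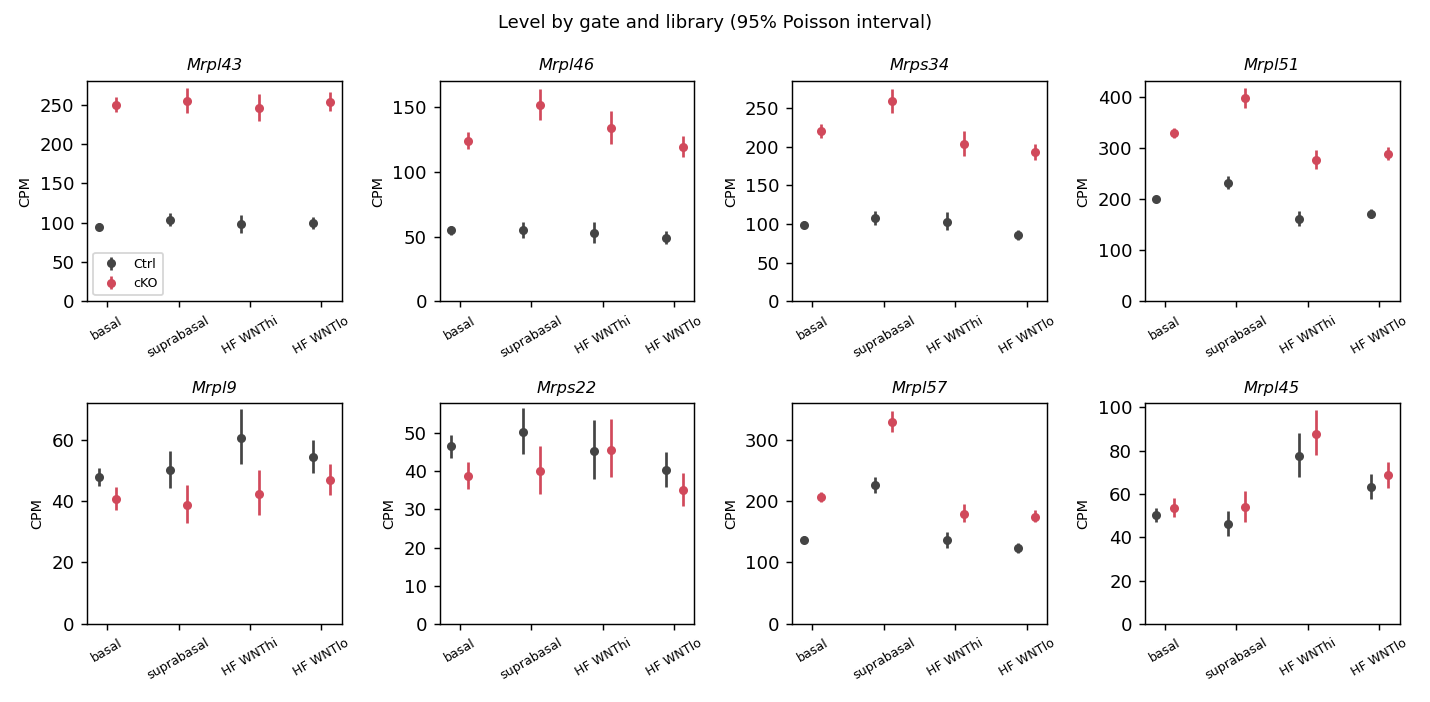
CPM of 8 members by gate, Ctrl in grey and cKO in red, with exact 95% Poisson intervals and vertical axes that start at 0. *Mrpl43*, *Mrpl46*, *Mrps34* and *Mrpl51* are higher in cKO in each gate, *Mrpl9* is lower in each, and *Mrpl57* stands highest in suprabasal cells of both libraries.

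Within a library, the members differed little between cell types. Summed over members, suprabasal cells had 1.06 times the basal level in Ctrl (1.05 to 1.07) and 1.08 times in cKO (1.07 to 1.10). Of the 76 members, 46 were higher and 17 lower in suprabasal cells in both libraries, 60.5% and 22.4%, where 35.1% of all genes were higher and 45.4% lower in both. At least 1.5-fold higher in suprabasal cells were 1 member in Ctrl and 2 in cKO, below the 13.1% and 12.8% of all genes, and 0 were that much lower in either library, where 22.1% and 18.4% of all genes were. These shares of all genes, and those of the follicle and cycling contrasts below, were not matched for depth. Among the 4850 genes with at least 1651 UMIs, 37.7% were higher and 47.7% lower in suprabasal cells of both libraries. At least 1.5-fold higher there in both libraries were 6.49% of these genes and 1.32% of members. Over the same contrast the median log2 ratio was 0.10 for the members in each library, -0.09 and -0.05 for all genes, and -0.22 and -0.18 for the cytosolic ribosomal protein genes. *Mrpl57* had the highest ratio of suprabasal to basal cells over both libraries, with 226 and 137 CPM in Ctrl, a ratio of 1.65 (1.54 to 1.76), and 330 and 206 CPM in cKO, a ratio of 1.60 (1.496 to 1.71). *Mrps26* followed with ratios of 1.40 and 1.51, *Mrps10* with 1.37 and 1.24, *Mrpl39* with 1.19 and 1.41, and *Mrpl36* with 1.29 and 1.26. *Mrps11*, a platform protein of the small subunit, had ratios of 0.729 (0.632 to 0.839) and 0.736 (0.623 to 0.865), *Mrpl52* 0.703 and 0.821, *Mrps6* 0.758 and 0.770, and *Mrpl13* 0.815 and 0.906.

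In follicle cells the summed level lay just under that of basal cells, with ratios of 0.974 in Ctrl and 0.947 in cKO for HF WNThi and 0.978 and 0.935 for HF WNTlo cells. At least 1.5-fold higher than in basal cells were 2 and 1 members in HF WNThi cells, where 13.4% and 13.1% of all genes were, and 1 and 0 members in HF WNTlo cells, where 23% and 20% were. At least 1.5-fold lower were 0 members in either gate and library, where 10.9% and 10.7% of all genes were in HF WNThi and 5.34% and 5.41% in HF WNTlo cells. *Mrpl45*, whose protein tethers the ribosome to the inner membrane, was higher in HF WNThi than in basal cells by 1.54 times in Ctrl (1.33 to 1.78) and 1.64 times in cKO (1.42 to 1.89). *Mrpl37* had ratios of 1.65 and 1.46 in the same contrast. *Mrps33* was the one member past the mark in Ctrl HF WNTlo cells, at 275 CPM against 182 CPM in basal cells, and had 338 against 254 CPM in cKO. *Mrpl12* and *Mrpl36* were lower in both follicle gates, by ratios from 0.705 for *Mrpl36* in cKO HF WNTlo cells to 0.846 for *Mrpl12* in Ctrl HF WNTlo cells. *Mrpl45*, *Mrpl37*, *Mrps33*, *Mrpl12* and *Mrpl36* were picked for the follicle contrasts after their values were seen.

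Cycling cells of the basal gate, those with a UMI of *Mki67* or *Top2a*, gave slightly more of their UMIs to the members. The shares were 0.815% in 1256 cycling and 0.772% in 857 other cells of Ctrl, a ratio of 1.06 (1.04 to 1.07). In cKO they were 1.00% in 834 and 0.942% in 410 cells, a ratio of 1.07 (1.05 to 1.08). At least 1.5-fold higher in cycling cells were 0 members in Ctrl and 1 in cKO, where 8.33% and 10% of all genes were, and at least 1.5-fold lower were 0 members in either library, where 4.48% and 4.46% were. Cycling cells were also deeper, with medians of 9862 and 7851 UMIs in Ctrl, and the part of depth in these ratios was not tested. *Mrpl51* had cycling ratios of 1.46 in Ctrl and 1.32 in cKO, and *Mrps2* 1.14 and 1.62.

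Members with fewer exons had higher ratios of cKO to Ctrl. Exons were counted in the transcript with the longest coding sequence, which had 2 to 12 of them with a median of 5. Across the 76 members the exon count and the log2 ratio had a Spearman correlation of -0.64 and a Pearson correlation of -0.56. These describe genes of the same 2 libraries, which are not independent replicates. The 47 members with up to 5 exons had a median log2 ratio of 0.42, and 28 of them, 59.6%, were at least 25% higher in cKO. The 29 members with more exons had a median of -0.04, and 0 of them passed that mark, the highest being *Mrps18b* at 0.29. All 9 members past 1.5-fold had 2 to 4 exons. With 1 to 3 exons, 31.58% of members and 19.65% of all genes passed 1.5-fold, and with 4 or 5 exons 10.71% of each. With 6 to 8 exons the shares were 0% and 5.74%, and with 9 or more 0% and 3.58%. Among all 12440 measured genes with a coding transcript the correlation was weaker, with a Spearman value of -0.22, and 34.6% of those with up to 5 exons and 12.8% of the others were at least 25% higher. For the 9962 of these genes with at least 200 UMIs the Spearman value was -0.26. Neither set is matched to the members for depth or range of exon counts. Up to 5 exons were found in 61.8% of the members but in 3558 of the 12440 genes. The shares of members and of all genes given further above are thus not matched for exon count. The division at 5 exons was made after the values were seen.

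**Figure D4:**
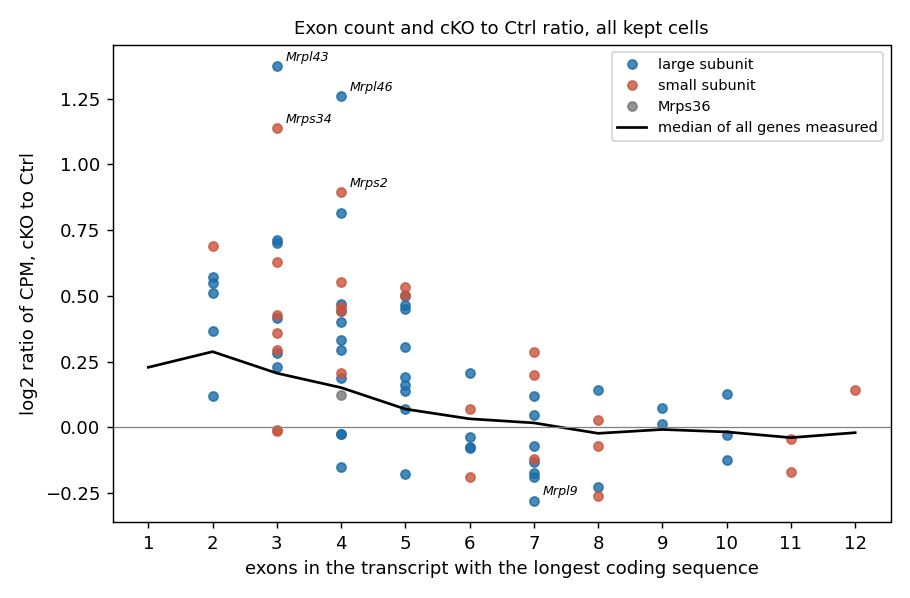
Log2 ratio of CPM, cKO to Ctrl, on the vertical axis against the exon count of each of the 76 members, coloured by subunit. The black line is the median of all genes with that exon count, and members with 6 or more exons all lie at or below 0.29.

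The correlation had the same sign in both subunits and in each gate. Spearman values were -0.67 for the 49 large and -0.62 for the 26 small subunit members. By gate they were -0.65 in basal, -0.63 in suprabasal, -0.61 in HF WNThi and -0.61 in HF WNTlo cells. Some few-exon members did not follow it, such as *Mrps14* and *Mrps16*, each with 3 exons and log2 ratios of -0.01. Transcript length gave a Spearman value of -0.04, coding length one of -0.28, the length of the longest exon one of 0.27 and exons per kb of transcript one of -0.41. Over all 12440 genes, exons per kb gave -0.25 and the exon count -0.22. For the nuclear genes of the respiratory chain the exon count gave -0.75 over 74 genes, and for the cytosolic ribosomal proteins -0.42 over 79 genes. Their median ratios were near 0 all the same, with few-exon respiratory chain genes at 0.06 and the others at -0.20.

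GGACT is the sequence most often methylated by METTL3, so its copies in the coding sequence were counted. The Spearman correlation of this count with the ratio was -0.03, and 42 of the 76 members had 0 copies and a median log2 ratio of 0.26. The 23 members with 1 copy had a median of 0.12 the 9 with 2 copies one of 0.14 and the 2 with 3 or more copies one of 0.37. The windows below, from GENCODE vM21 on GRCm38 and written 5′ to 3′ as in the transcript with GGACT in capitals, are shown because the member with the highest and the one with the lowest ratio hold the same number of copies. The position of the first G is counted from 1 at the first base of the coding sequence.
Mrpl43, position 14 of 477: cggtcgcgGGACTtcgagccg
Mrpl43, position 410 of 477: caacaaacGGACTgccctcca
Mrpl46, position 825 of 849: tttctcctGGACTctgatgga
Mrpl46, position 835 of 849: actctgatGGACTcagctgcc
Mrpl9, position 29 of 804: cggggttaGGACTctgtggtg
Mrpl9, position 370 of 804: tttctcagGGACTggcagtgt
Both windows of *Mrpl46* lie just before its stop codon and overlap each other. A match is not a methylated site, and no methylation was measured here.

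Promoters were read for the 67 members with an entry in RefSeq (GRCm38.p6), from 250 bases before to 50 after the start, and searched on both strands. AAGATGGC, the core of sites for YY1, was found in 12 members or 17.9%, in 2.88% of all 27025 promoters and in 4.77% of the 9494 promoters of measured genes. CCGGAAGT, bound by ETS factors, was in 16.4% of members and 8.37% of promoters of measured genes. GCGCATGC, bound by NRF1, a regulator of nuclear genes for mitochondria, was in 11.9% and 5.68%. CACGTG, bound by MYC, was in 7.46% and 10.1%, and TATAAA in 5.97% and 6.52%. In 8 members AAGATGGC lay on the strand of the gene 11 to 36 bases after the start, and 4 of these are shown with the match in capitals.
Mrpl35, chr6:71823743-71823772, minus strand: aggcaggctgcAAGATGGCggcttccatct
Mrpl37, chr4:107066822-107066851, minus strand: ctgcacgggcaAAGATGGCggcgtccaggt
Mrps27, chr13:99344789-99344818, plus strand: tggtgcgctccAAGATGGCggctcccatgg
Mrps7, chr11:115604147-115604176, plus strand: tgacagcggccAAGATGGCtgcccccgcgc
Members with AAGATGGC had a median log2 ratio of 0.16 and those without 0.19. For the NRF1 letters the medians were 0.17 and 0.19, for the ETS letters 0.14 and 0.20, for the MYC letters 0.12 and 0.19, and for TATAAA, in 4 members, 0.68 and 0.14. The 4 members with TATAAA all have 4 exons.

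Of 6 genes for mitochondrial ribosomal proteins with other names, 4 were higher and 2 lower in cKO. *Gadd45gip1*, a large subunit protein, measured 146 CPM in Ctrl and 252 CPM in cKO, a ratio of 1.72 (1.67 to 1.78), and *Chchd1* of the small subunit had a ratio of 1.52 (1.48 to 1.57). *Dap3*, a small subunit GTPase, was at the other end with 82.0 and 67.3 CPM, a ratio of 0.821 (0.779 to 0.866). Of 21 measured assembly factors 4 were at least 1.5-fold higher, 19.0%, where 7.68% of all genes were, and the median log2 ratio was 0.20. They were *Mterf4* with 2.20, the helicase *Ddx28* with 2.05, *Rbfa* with 1.58 (1.49 to 1.69) and the methyltransferase *Mettl15* with 1.502 (1.24 to 1.82). The intervals of *Rbfa* and *Mettl15* crossed the mark. *Rpusd4*, a pseudouridine synthase, was lowest at 0.747 (0.657 to 0.849). The 19 mitochondrial translation factors had a median of 0.17, 0 of them past 1.5-fold and *Tsfm*, an elongation factor, highest at 1.46.

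Other lists had medians nearer 0. The 74 nuclear respiratory chain genes had a median log2 ratio of -0.02 with 0 past 1.5-fold and a summed ratio of 1.02, and the 79 cytosolic ribosomal protein genes a median of 0.01 with 3 past 1.5-fold and a summed ratio of 1.01. The 10 genes of mitochondrial transcription and replication had a median of -0.07, with *Tefm*, an elongation factor of mitochondrial transcription, highest at a ratio of 1.73 (1.53 to 1.95). *Tfam*, the packaging factor of mitochondrial DNA, had a ratio of 0.958 (0.896 to 1.02). The mRNAs that mitochondrial ribosomes translate, 13 in number, were all above 1, with a summed ratio of 1.09, from *mt-Co2* at 1.01 to *mt-Nd6* at 1.88. *mt-Nd6*, *mt-Nd4l* and *mt-Atp8* overlap or adjoin other mitochondrial genes, so their counts are uncertain. Median mitochondrial share per cell was 4.66% in Ctrl and 5.01% in cKO. With cells limited to 10% of mitochondrial UMIs, the summed ratio of the members was 1.22.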

How the data were processed

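Both 10x Genomics 3′ libraries, Ctrl and cKO, were analysed. Deposited were raw UMI counts of 737280 barcodes, obtained by the authors with Cell Ranger (2.0 in the submitters' notes) on mm10 and not normalized. The libraries held 59664869 and 49755010 UMIs.

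UMIs were summed over cells and scaled to CPM, with exact Poisson intervals for levels and exact conditional binomial intervals for ratios. Their coverage was tried only on simulated Poisson counts, the model that the intervals assume. Such counts hold no spread between cells or embryos, so the trial says nothing about that spread. No test between conditions was run. Gates used marker genes: other cell types (at least 3 UMIs, or 5 for mesenchyme), suprabasal (*Krt1* and *Krt10* at least 20 UMIs per 10000), HF WNThi (at least 2 UMIs of *Shh*, *Dkk4*, *Fgf20* and *Wnt10b*, and more than of the next list), HF WNTlo (at least 2 UMIs of *Sox9*, *Krt79* and *Nfatc1*) and basal (*Krt14* and *Krt5* at least 60 per 10000, no follicle UMI). No doublet caller was run. Near copies were searched with BLAST 2.17.0 (95% identity over 100 of the last 400 bases) and found for 13 members. Python 3.11.15, numpy 2.4.6, scipy 1.17.1, pandas 2.3.3, matplotlib 3.10.9, R 4.3.3, edgeR 4.0.16 and DESeq2 1.42.0 (scaling factors only) were used.

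Named were the 12 highest and 8 lowest ratios of cKO to Ctrl, the 6 highest levels, the 5 highest and 5 lowest ratios of suprabasal to basal cells, members known for a role and the extremes of each related list, all with at least 200 UMIs for members. The members and lists were chosen with earlier results of these data known. Alternatives were other scalings, limits on genes, mitochondrial share, cycling and depth, subtraction of 5% free RNA, and equal weight for cells or gates.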

Additional observations from a re-analysis of the deposited data

How the results depend on the processing

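The direction of the summed ratio held under every alternative run, as did that of the named members whose counting interval excluded a log2 ratio of 0. Over all kept cells the summed ratio of 1.21 became 1.193 with TMM scaling, 1.192 with DESeq2 size factors, 1.201 with at least 1000 and 1.227 with at least 2500 genes a cell, 1.197 without cells with *Mki67* or *Top2a*, 1.205 with equal weight for each cell, 1.207 with cells thinned to 5000 UMIs and 1.219 with the 4 gates at equal weight. In basal cells the 1.23 became 1.222 with DESeq2 size factors, 1.220 and 1.2502 with at least 1000 and 2500 genes, and 1.220 without cycling cells. At 25% higher in place of 1.5-fold the count of higher members was 28. It ranged from 8 to 11 over the other settings, and all of these members had up to 5 exons. For 35 named members under 11 settings, 366 of 385 values stayed inside the first counting interval and 0 changed sign where that interval excluded a log2 ratio of 0. With the median exon count of coding transcripts, an alternative added after seeing the data, the Spearman correlation of exons and ratio was -0.62, and under the other settings it lay between -0.65 and -0.63. No paired analysis was possible because each condition has 1 library, which also leaves no replicate to leave out.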

Other observations

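The TATAAA letters occurred in the promoter windows of only 4 of 67 members, *Mrpl16*, *Mrpl46*, *Mrps17* and *Mrps24*, whose median log2 ratio of cKO to Ctrl was 0.68, beside 0.14 for the 63 members without. This was seen after the values were known and was not tested. All 4 have 4 exons, and members with up to 5 exons had a median log2 ratio of 0.42. The letters lay 68 to 181 bases before the start. In the 56 Ctrl and 47 cKO cells gated as other cell types, the median share of member UMIs was 0.740% and 0.806%. This gate mixes Merkel, melanocyte and mesenchymal cells, whose markers differed in level between the libraries, with *Pmel* at 592 CPM in Ctrl and 80.7 CPM in cKO and *Lum* at 70.2 and 263 CPM, so cell makeup and genotype cannot be told apart in it.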
